A study of Paracentrotus lividus with 19 samples.

Results

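CHRD and UNIV, genes of dorsal-ventral signalling, were followed in the sea urchin Paracentrotus lividus. Each name matched 1 row of the deposited count table, so the pair make up 2 of its 63389 features, and both passed the filter on low counts that left 62865. Whole embryos were harvested 24 h after fertilization for poly(A) RNA sequencing, and each library was made from about 6000 pooled embryos. Controls (4 libraries) were unexposed. The others were exposed from fertilized eggs on to Fe2O3 particles (4 libraries, labelled 5e-05 M and 4 mg per L of iron), to the iron salt FeCl3 (4), to ZnO particles (3, labelled 1e-05 M and 0.8 mg per L of zinc) or to the zinc salt ZnSO4 (4), each salt at the metal concentration of its particle. Read as masses of metal, the labelled mass concentrations do not match the labelled molar ones for either metal, and how they relate is not stated. Every treatment occurs in 3 sets, named F1, F2 and F3, whose meaning the labels do not give. F1 holds 2 libraries per treatment (1 for ZnO), and F2 and F3 hold 1 each. No genotype, strain or parent animal is labelled.

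CHRD is the name of chordin, a secreted protein that binds BMP ligands and limits where they signal. In sea urchin embryos chordin is expressed in the ventral (oral) ectoderm under the control of Nodal, a ligand of the TGF-beta family, and acts against BMP signalling there. UNIV is the name of univin, another TGF-beta family ligand, related to vertebrate Vg1, which is required for Nodal signalling in the sea urchin embryo. The gene names are those of the authors' table, and no sequence or length of the features was used here. Levels of CHRD and UNIV are therefore compared between libraries and not with each other.

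Libraries held 24438369 to 32801015 counts. Levels are CPM, the count relative to the library's TMM-scaled total. CHRD had 132 to 9742 counts per library and UNIV 2110 to 4349, and by mean level they stood above 99.1% and 97.9% of the features tested. In bulk embryos, fewer cells that express a gene and less RNA per cell cannot be told apart.

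The chordin gene was much lower in most zinc-exposed libraries and level across control and iron libraries. In controls, CHRD stood at 309 and 289 CPM in the F1 libraries, at 230 CPM in F2 and at 281 CPM in F3. With Fe2O3 it stood at 299 and 290 CPM in F1, 228 CPM in F2 and 274 CPM in F3. With FeCl3 the values were 306 and 280 CPM in F1, 236 CPM in F2 and 301 CPM in F3. These 12 libraries thus fell within 228 to 309 CPM, and set F2 was the lowest in each of the 3 treatments.

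With ZnO, CHRD stood at 79.1 CPM in F1, 322 CPM in F2 and 116 CPM in F3. The F2 ZnO library had the highest CHRD level of all 19 libraries, at 140% of its set's control, while F1 and F3 ZnO stood at 26.4% and 41.3% of theirs. With ZnSO4, CHRD stood at 4.29 and 5.43 CPM in F1, 79.1 CPM in F2 and 64.3 CPM in F3. As a share of the set's control mean, the 4 ZnSO4 libraries stood at 1.43% and 1.82% in F1, 34.4% in F2 and 22.9% in F3. The F1 ZnSO4 values rest on 132 counts (exact 95% Poisson interval 110 to 157) and 153 counts (130 to 179), against 8196 and 8615 counts in the F1 controls. These intervals cover counting error only.

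**Figure D1:**
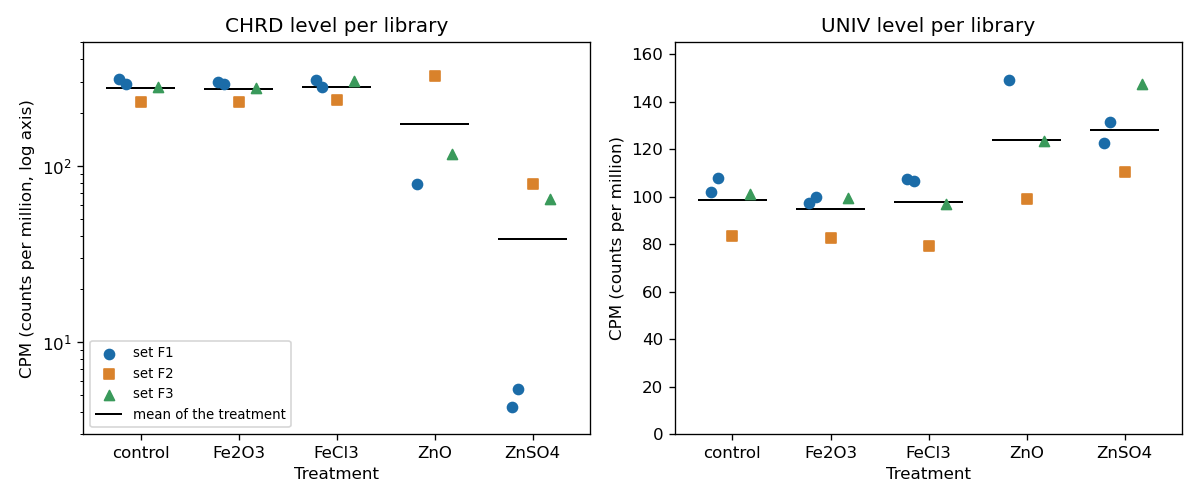
CPM of CHRD (left, log axis) and UNIV (right, linear axis from 0) in each of the 19 libraries, by treatment. Each point is a library, with colour and shape for the set, and horizontal lines are treatment means. CHRD runs from 4.29 to 79.1 CPM in the 4 ZnSO4 libraries and from 228 to 309 CPM in control and iron libraries. It stands at 322 CPM in the F2 ZnO library. UNIV in zinc libraries lies above the other libraries of the same set, as for 1.13% of all features.

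Averaged over the sets by an edgeR quasi-likelihood fit with a term for set, the log2 change of CHRD with ZnSO4 was -3.20 ± 0.56 (SE, adjusted p = 0.000633), a level 9.2-fold lower. Without set F1 it was -1.85 and still called. In that comparison 5.42% of all features were called at an adjusted p under 0.05. The CHRD change was the 25th lowest log2 change of the 62865 tested. With ZnO the log2 difference was -1.02 ± 0.57 (adjusted p = 0.54), with a 95% interval from -2.20 to 0.15, in a comparison where 2.09% of features were called. Without the F2 ZnO library it was -1.59, the largest drop among the fits that leave out 1 library, and this was not called either. With Fe2O3 the difference was -0.02 (95% interval -1.04 to 0.99) and with FeCl3 0.01 (-1.0 to 1.02), and 0% and 0.027% of features were called in those comparisons. The fit takes 1 spread per gene over all treatments and sets, so zinc effects that differ between sets widen these intervals. In a fit with set-by-treatment terms, CHRD changes with iron ran from -0.03 to 0.10 within sets. The 4 comparisons share the same control libraries.

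Ordered by mean, the CHRD levels were 281 ± 31.7 CPM with FeCl3, 277 ± 33.6 CPM in controls, 273 ± 31.3 CPM with Fe2O3, 172 ± 131 CPM with ZnO (SD, n = 3) and 38.3 ± 39.1 CPM with ZnSO4 (SD, n = 4 for all but ZnO). These are plain means over libraries, in which F1 gives 2 of the 4 values in all treatments but ZnO. Their SDs include differences between sets. No neighbours in this order were called after adjustment. Fe2O3 and ZnO differed by a log2 value of -1.0 (ZnO minus Fe2O3, adjusted p = 0.57, 2.17% of features called), and ZnO and ZnSO4 by 2.18 ± 0.55 (ZnO minus ZnSO4, adjusted p = 0.146, 0.0779% called). That last difference had a 95% interval from 1.05 to 3.31, which leaves out 0, but it missed the threshold after adjustment. It was called without set F1 (1.58, adjusted p = 0.0073), without the F2 ZnSO4 library (2.92, adjusted p = 0.0258) and without the F3 ZnSO4 library (2.74, adjusted p = 0.0207). In 28 of 31 alternative fits it stayed uncalled, with an adjusted p of 0.626 without the F2 ZnO library. ZnSO4 was lower than Fe2O3 (-3.18, adjusted p = 0.000675, 5.49% of features called) and lower than FeCl3 (-3.21, adjusted p = 0.000621, 5.24% called).

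The size of the zinc effect on CHRD differed between the sets. The difference between sets was called for ZnSO4 (adjusted p = 6.27e-17, where 3.75% of features were called) and for ZnO (adjusted p = 5.46e-10, 1.42% called). Over both zinc forms against the other libraries it was called as well (adjusted p = 2.58e-17, 5.03% called). With ZnSO4 the log2 change was -5.95 ± 0.11 in F1, -1.54 ± 0.12 in F2 and -2.12 ± 0.12 in F3 (SE), each called within its set (highest adjusted p = 5.42e-10, with 8.81%, 2.52% and 2.56% of features called). With ZnO it was -1.92 ± 0.11 in F1, 0.49 ± 0.11 in F2 and -1.27 ± 0.11 in F3. The rise in F2 passed the test (adjusted p = 0.0239), as did the falls in F1 and F3 (adjusted p = 6.25e-13 and 1.83e-08, with 4.64%, 1.08% and 1.59% of features called in F1, F2 and F3). CHRD was higher with ZnO than with ZnSO4 in every set, by 4.03, 2.03 and 0.85 on the log2 scale in F1, F2 and F3 (highest adjusted p = 6.43e-05, with 3.47%, 0.569% and 0.721% of features called), and this gap also differed between sets (adjusted p = 2.33e-12, 2.47% called). F2 and F3 hold 1 library per treatment, so the spread in these tests comes from the F1 pairs, and the lone libraries are assumed to vary like them.

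**Figure D2:**
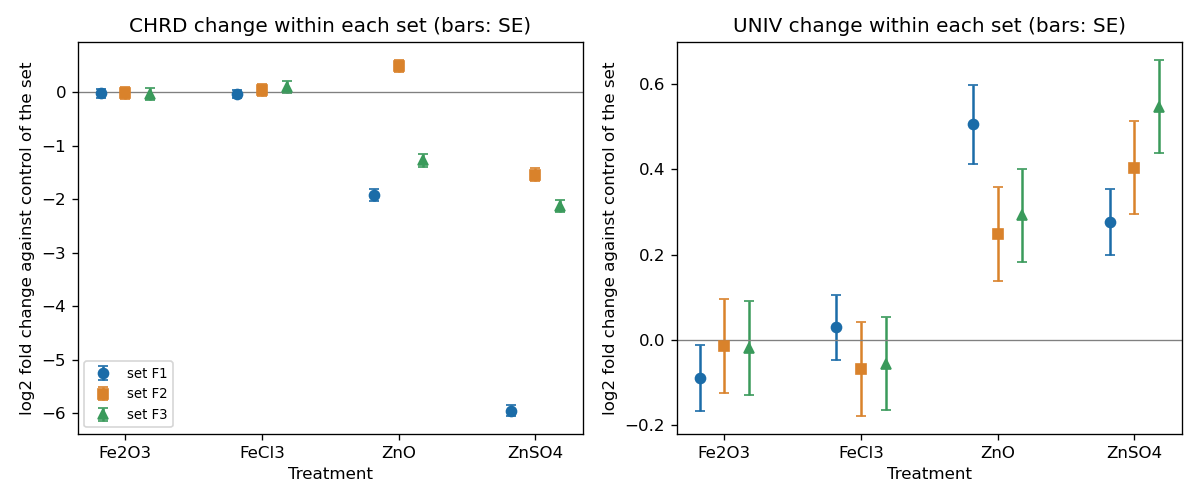
Log2 fold change of CHRD (left) and UNIV (right) against the control of the same set for each treatment, from the fit with set-by-treatment terms, with bars for the SE and colours for the sets. Vertical scales differ between panels. CHRD changed by -5.95 in F1 with ZnSO4 and by 0.49 in F2 with ZnO, while UNIV changes with zinc run from 0.25 to 0.55 in all sets and those with iron from -0.09 to 0.03.

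The univin gene was modestly higher in all zinc libraries. In controls, UNIV stood at 102 and 108 CPM in F1, 83.3 CPM in F2 and 101 CPM in F3. With Fe2O3 it stood at 97.5 and 99.7 CPM in F1, 82.5 CPM in F2 and 99.6 CPM in F3. With FeCl3 it stood at 108 and 107 CPM in F1, 79.4 CPM in F2 and 97.1 CPM in F3. Control and iron libraries of a set lay close together, and set F2 was the lowest in each treatment.

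With ZnO, UNIV stood at 149 CPM in F1, 98.9 CPM in F2 and 124 CPM in F3. With ZnSO4 it stood at 123 and 131 CPM in F1, 110 CPM in F2 and 147 CPM in F3. In every set the zinc libraries were above all control and iron libraries of that set, as they were for 1.13% of all features. As a share of the set's control mean, the 7 zinc libraries ran from 117% to 146%. The order of the zinc forms was not shared by the sets, since ZnO was the higher in F1 and ZnSO4 in F2 and F3.

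UNIV rose by 0.35 ± 0.08 with ZnO (log2, SE, adjusted p = 0.0102) and by 0.38 ± 0.07 with ZnSO4 (adjusted p = 0.00119). In those comparisons 2.09% and 5.42% of all features were called. The UNIV changes were the 5857th and the 5638th highest log2 changes of the 62865 tested. Without the F1 ZnO library the ZnO change was 0.25 and was not called (adjusted p = 0.215). With Fe2O3 and FeCl3 UNIV differed by -0.05 ± 0.07 and -0.02 ± 0.07, with 95% intervals from -0.20 to 0.09 and from -0.16 to 0.13. Ordered by mean, UNIV stood at 128 ± 15.6 CPM with ZnSO4, 124 ± 25.03 CPM with ZnO, 98.5 ± 10.6 CPM in controls, 97.7 ± 13.0 CPM with FeCl3 and 94.9 ± 8.28 CPM with Fe2O3 (SD). As for CHRD, F1 weighs more in all these means but that of ZnO, and the SDs include differences between sets. Of the neighbours in this order, ZnO and controls were called, and no others were. ZnO and ZnSO4 differed by -0.03 ± 0.08 (95% interval -0.18 to 0.13, adjusted p = 0.988), and Fe2O3 and FeCl3 by -0.04 ± 0.07 (adjusted p = 1.00, 0.0732% of features called).

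Unlike that of CHRD, the change of UNIV was not shown to differ between sets. The tests between and within sets are those made for CHRD above, with the same shares of all features called. The adjusted p of the difference was 0.709 for ZnO and 0.571 for ZnSO4. Within sets the log2 change with ZnO was 0.51 in F1, 0.25 in F2 and 0.29 in F3, of which F1 was called (adjusted p = 0.000591). With ZnSO4 it was 0.28 in F1, 0.40 in F2 and 0.55 in F3, all called (adjusted p = 0.0197, 0.0442 and 0.0026). The F1 call was lost without F1 control replicate 1 (adjusted p = 0.191) or F1 ZnSO4 replicate 2 (adjusted p = 0.218). The F2 call was lost without F1 Fe2O3 replicate 1 or 2, F1 FeCl3 replicate 2 or F1 ZnSO4 replicate 1 (adjusted p = 0.0667, 0.0597, 0.0527 and 0.0511). The level itself differed between sets, with a log2 difference of -0.35 for F2 minus F1 (adjusted p = 7.45e-06), 0.32 for F3 minus F2 (adjusted p = 0.000121) and -0.03 for F3 minus F1 (adjusted p = 0.633). Most features differed between sets in these comparisons (70.5%, 64.2% and 69.4% called).

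Both zinc forms against both iron forms gave a CHRD difference of -2.11 ± 0.41 (log2, SE, adjusted p = 0.00144) and a UNIV difference of 0.40 ± 0.05 (adjusted p = 9.27e-06), among 7.46% of features called. Without set F1 the CHRD difference was -1.08 and without both F1 ZnSO4 libraries -1.38, and both were called. As a test free of the model across features, treatment labels were permuted within sets in all 8400 ways. The 7 zinc libraries differed from the 12 others by a mean set-centred log2 CPM of -2.68 for CHRD (exact permutation test, two-sided, p = 0.000476). For UNIV the difference was 0.38 (exact permutation p = 0.000119, the smallest that these permutations can give). Without any 1 library these differences ran from -3.09 to -2.11 for CHRD and from 0.35 to 0.40 for UNIV (highest exact permutation p = 0.00143 and 0.000357). Iron against control gave -0.001 for CHRD and -0.03 for UNIV (135 permutations, exact permutation p = 0.963 and 0.281).

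The ratio of CHRD to UNIV within a library needs no scaling between libraries. In the 12 control and iron libraries its log2 value lay between 1.39 and 1.63. It stood at 1.70 in the F2 ZnO library, above all of them. In the other 6 zinc libraries it was lower without overlap, at -0.91 in F1 ZnO, -0.09 in F3 ZnO, -4.82 and -4.58 in F1 ZnSO4, -0.48 in F2 ZnSO4 and -1.20 in F3 ZnSO4. Zinc libraries differed from the others by -3.07 (exact permutation test within sets, p = 0.000476), and iron libraries from controls by 0.03 (exact permutation p = 0.548). Within F1 alone the zinc difference was -4.95 (exact permutation p = 0.0119, the smallest that 84 permutations give). Within F3 it was -2.17 (exact permutation p = 0.1, the smallest that 10 permutations give) and within F2 -0.89 (exact permutation p = 0.4).

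**Figure D3:**
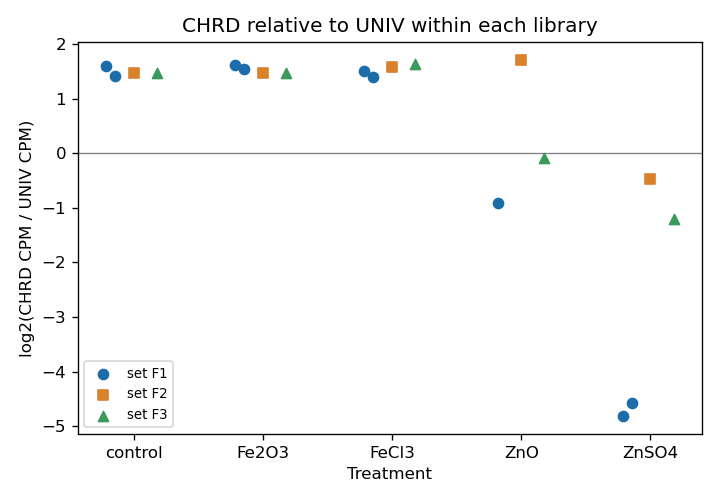
Log2 ratio of CHRD CPM to UNIV CPM in each library, by treatment, with colour and shape for the set. Zero marks equal CPM, which is not equal abundance since lengths are not known. The 12 control and iron libraries lie between 1.39 and 1.63, the F2 ZnO library at 1.70, and the other 6 zinc libraries between -4.82 and -0.09.

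Metallothionein transcripts were high in the F2 ZnO library too, where CHRD was not low. Metallothioneins are small proteins that bind zinc, and the summed level of their 23 features stood at 229% of the set's control there, within the 184% to 313% of all zinc libraries, against 75.9% to 137% in control and iron libraries. In the F1 ZnSO4 libraries, where CHRD was lowest, 5 heat shock features (HSP72 and HSP74) summed to 206% and 218% of the control mean, against 91.6% to 112% in the other zinc libraries. The 5 endoderm features (ENDO16, EVE and GATAE) summed to 34.6% and 38.7% there, against 73.2% to 131%. The part of these shifts in the CHRD values was not tested. Without both F1 ZnSO4 libraries, CHRD with ZnSO4 differed from control by -2.0 ± 0.31 (log2, SE, adjusted p = 0.000114).

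The table names few other genes of the pathway. Of the names listed for ligands, extracellular modulators, receptors, transducers and target transcription factors, 7 features matched, CHRD and UNIV included, and none was a receptor. With ZnSO4, 1 of the 7 rose (UNIV) and 3 fell (CHRD, DLX and HMX), where 2.35% and 3.07% of all features rose and fell. With ZnO, 2 rose (UNIV and BMP1) and 1 fell (DLX), where 0.948% and 1.14% did. With zinc against iron, 3 were higher (UNIV, DVR1 and BMP1) and 3 lower (CHRD, DLX and HMX), where 3.37% and 4.09% of all features were. None of the 7 was called with Fe2O3 or FeCl3. The 7 include the members, and members and lists were chosen with earlier results of these data known. The shares are over features of all levels, of which CHRD and UNIV stood above 99.1% and 97.9%. These counts are therefore a description and no test of the pathway. The median log2 change of the 7 was 0.16 with ZnSO4 and 0.06 with ZnO, against 0.01 and 0.004 over all features.

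DVR1, named for a TGF-beta family ligand as UNIV is, differed by 0.30 ± 0.11 with ZnO (adjusted p = 0.232) and by 0.22 ± 0.10 with ZnSO4 (adjusted p = 0.296). It was higher with zinc than with iron (0.29, adjusted p = 0.0167). Its level set F2 apart, with 138 CPM in the F2 control against 69.1, 72.4 and 70.5 CPM in the others, whereas UNIV was lowest in F2. With ZnSO4 its change was 0.50 in F1, -0.28 in F2 and 0.10 in F3, a difference between sets (adjusted p = 0.00116).

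BMP1 is the name of an astacin protease of the family of tolloid, which cleaves chordin in vertebrates and flies. It rose with ZnO by 0.41 ± 0.10 (adjusted p = 0.0248) and differed with ZnSO4 by 0.22 ± 0.09 (adjusted p = 0.203). Within sets, its change with ZnSO4 was 0.30 in F1, -0.26 in F2 and 0.51 in F3, and the difference between sets was called (adjusted p = 0.00289). In F2 BMP1 was also the most abundant, at 276 CPM in the control against 150, 144 and 129 CPM in the F1 and F3 controls.

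SP-SMAD23, named for a Smad protein that carries Nodal and univin signals to the nucleus, differed by 0.06 ± 0.15 with ZnO and 0.16 ± 0.14 with ZnSO4 and was called in neither (adjusted p = 0.941 and 0.674). DLX and HMX are homeobox genes of the ectoderm. DLX fell with both zinc forms, with log2 changes of -1.56 ± 0.33 for ZnO (adjusted p = 0.00947) and -1.94 ± 0.30 for ZnSO4 (adjusted p = 0.000158), and it was lower than the set's control in all 7 zinc libraries, the F2 ZnO library included (16.1 against 39.1 CPM). HMX fell with ZnSO4 (-1.24 ± 0.24, adjusted p = 0.00162) and differed with ZnO by -0.60 ± 0.26 (adjusted p = 0.349). In the F3 ZnO library HMX stood at 141 CPM against 118 CPM in the F3 control, while CHRD was at 41.3% of its control there, so the sets in which a zinc form left the level at or above control were not shared by CHRD and HMX.

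**Figure D4:**
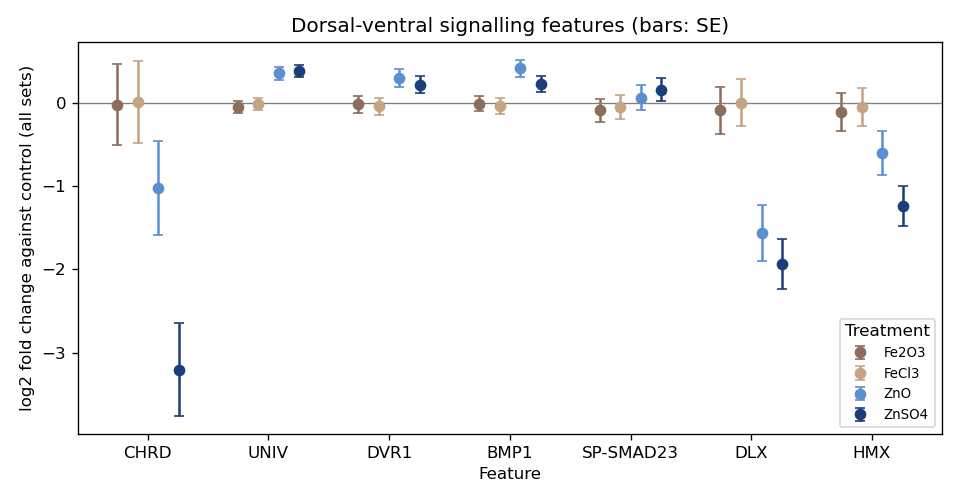
Log2 fold change against control, averaged over sets, for the 7 measured features of dorsal-ventral signalling under the 4 treatments, with bars for the SE. With ZnSO4 CHRD stands at -3.20, DLX at -1.94 and HMX at -1.24, UNIV, DVR1, BMP1 and SP-SMAD23 lie between 0.16 and 0.38, and the iron treatments lie near 0.

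Likeness of pattern was measured as Pearson's r of log2 CPM with set means removed, over the 19 libraries and among 507 gene-named features with a mean log2 CPM of at least 1. These libraries share their zinc exposure and scaling, and the values are a description. CHRD and UNIV tended to run opposite to each other (r = -0.62, Spearman's rho = -0.61, and r = -0.85 over the 10 libraries outside F1). In the F2 ZnO library both stood above their set's control, at 140% and 119%. Most like CHRD were ENDO16.3.3 (a gut marker, r = 0.914), BLIMP1KROX (a transcription factor of the endoderm and mesoderm, 0.914), ABCB4.4.7 (an ABC transporter, 0.902), FGFR.1.3 (an FGF receptor, 0.902) and FREM2 (an extracellular matrix gene, 0.901). Outside F1 these values became -0.03, -0.39, 0.56, 0.94 and 0.93, so the likeness of ENDO16.3.3 and BLIMP1KROX rested on F1, and that of FGFR.1.3 and FREM2 did not. ABCB4.4.7, FGFR.1.3 and FREM2 fell with ZnSO4, with log2 changes of -0.60 (adjusted p = 0.00597), -0.43 (adjusted p = 0.00274) and -0.92 (adjusted p = 6.58e-05). ENDO16.3.3 and BLIMP1KROX were not called (adjusted p = 0.107 and 0.169), in a comparison where 5.42% of all features were. These features were picked for likeness to CHRD, which itself fell with ZnSO4.

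Most opposite to CHRD were DYNLRB2 (a dynein light chain, r = -0.93), the Hsp70 features HSP74.2.2 (-0.92) and HSP72.1.3 (-0.90), NFE2 (a basic leucine zipper factor, -0.90) and FGFRL1.1.2 (an FGF receptor-like gene, -0.90). Outside F1 these values were -0.37, -0.40, -0.09, -0.56 and -0.67. Of all 38709 features at this level, 2.43% had an r above 0.8 with CHRD and 1.85% one below -0.8.

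Most like UNIV were ACTG1 (a cytoplasmic actin, r = 0.947), WNT2 (a Wnt ligand, 0.947), MT.9.23 (a metallothionein, 0.911), CALMB.2.3 (calmodulin, 0.910) and MMP16 (a matrix metalloproteinase, 0.894). These held outside F1, at 0.95, 0.94, 0.88, 0.90 and 0.93. Spearman's rho was lower, at 0.69 for ACTG1 and 0.53 for MMP16, and 0.89 for WNT2. Most opposite were ACAC.2.3 (acetyl-CoA carboxylase, -0.960), ARC3 (-0.959), HMB1 (a homeobox gene, -0.942) and INO1A (an inositol phosphate synthase, -0.941). Of these 9 features, 8 were called with ZnSO4, where 5.42% of all features were, and INO1A was not (log2 difference -0.22, adjusted p = 0.148). The 9 were picked by their r with UNIV, which itself differs with zinc. Calls among them therefore follow largely from that choice. Of all 38709 features at this level, 1.41% had an r above 0.8 with UNIV and 2.29% one below -0.8. Names with several numbered features, such as MT and ENDO16, may share reads, so their single values are uncertain.

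**Figure D5:**
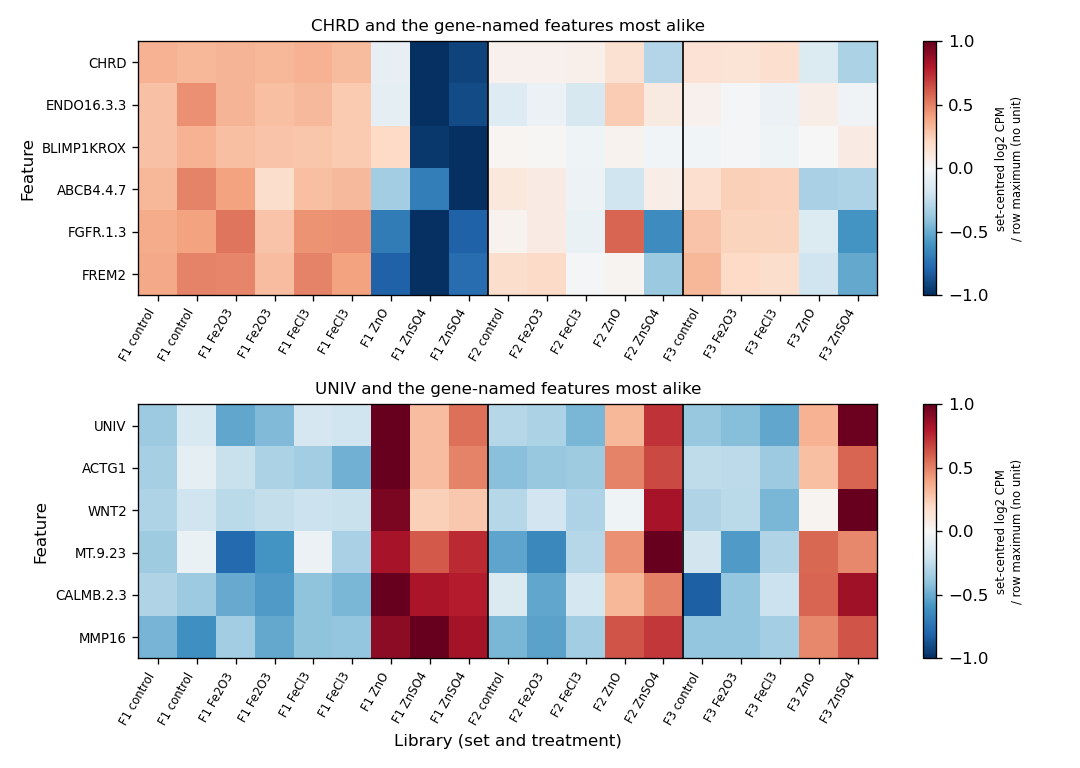
Set-centred log2 CPM of CHRD (top) and UNIV (bottom) with the 5 most alike gene-named features each, in the 19 libraries grouped by set. Each row is divided by its largest absolute value, so colour runs from -1 (blue) to 1 (red), and vertical lines part the sets. CHRD is lowest in the F1 ZnSO4 libraries. UNIV is above its set mean in all 7 zinc libraries, while WNT2 is near its set mean in the ZnO libraries of F2 (-0.04) and F3 (0.02).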

How the data were processed

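Poly(A) RNA of whole sea urchin embryos was sequenced in 19 libraries. The authors deposited one table of raw counts, whole numbers without normalization, of 24438369 to 32801015 per library. Tools named without a role, per the submitters' processing notes, were SAMtools 1.3.1, BWA 0.7.12-r1039 and Trim Galore 0.4.0. Not given in the sources used here were the reference, the counting program, its strand setting and what was done with multi-mapping reads, so related features could divide or share reads.

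Counts were analysed with edgeR 4.0.16 in R 4.3.3. Low features were removed by filterByExpr (treatment as group), and libraries were scaled by TMM. A quasi-likelihood fit to all libraries had terms for set and treatment (12 residual and 11.1 prior degrees of freedom). P-values were adjusted by Benjamini-Hochberg over all 62865 features, with calls under 0.05. Set differences used set-by-treatment terms. Log2 CPM had a prior count of 2. Scripts were tested on simulated data. Alternatives were RLE factors, DESeq2 1.42.0, limma-trend 3.58.1, leaving out the filter or asking for a CPM of 2 in at least 4 libraries, no set term, a replicate block, summed F1 libraries, and omitted sets or libraries. Separate cultures are not stated for the replicates, and p-values then cover only the spread between samples, possibly technical. Replicates within F1 were kept apart, since their counts differed beyond sampling noise (chi-square over its degrees of freedom 4.25 to 8.21).

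The members and gene lists were chosen with earlier results of these data known, and the spelling SP-SMAD23 was added once feature names were seen. Named were the members, every measured feature of the pathway list, the summed metallothionein features, and for each member the 5 gene-named features with the highest and the 5 with the lowest r, 1 per name. One gene that this rule takes is not reported here.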

Additional observations from a re-analysis of the deposited data

Results flagged for a closer look

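Set differences of the zinc effect were called for several dorsal-ventral features besides those of CHRD given above. For both zinc forms against the other libraries the adjusted p of the difference between sets was 2.58e-17 for CHRD, 1.41e-11 for DLX, 2.75e-11 for HMX, 0.00012 for DVR1 and 0.000325 for BMP1. For ZnO against control it was 5.46e-10 for CHRD, 1.12e-09 for DLX and 9.07e-09 for HMX. For ZnSO4 against control it was 6.27e-17 for CHRD, 1.12e-06 for HMX, 2.73e-05 for DLX, 0.00116 for DVR1 and 0.00289 for BMP1. For ZnO against ZnSO4 it was 2.33e-12 for CHRD, 1.27e-09 for DLX and 5.39e-07 for HMX. UNIV and SP-SMAD23 were called in none of these 4 tests. Of all features, 5.03%, 1.42%, 3.75% and 2.47% were called in them, in the order given. F2 and F3 hold 1 library per treatment, so the spread in these tests comes from the F1 pairs.

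HMX fell with ZnO in F1 (log2 change -1.77) and F2 (-0.45), while its F3 value was 0.25 (adjusted p = 0.49). For DLX the log2 change with ZnO was -3.36 in F1, -1.28 in F2 and -0.77 in F3. Each of these ZnO values rests on 1 ZnO library.

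In 8 of 32 groups of 4 libraries, 1 library stood apart from the other 3, where chance marks about 5% of groups of like libraries. These groups are not such, since each holds 2 libraries of F1 and 1 each of F2 and F3, most features differ between sets, and the groups share sets. In each it was the F2 library. The gap to the nearest library, as a share of the group's range, was 0.859, 0.844 and 0.920 for BMP1 in control, Fe2O3 and FeCl3 libraries, where F2 was the highest. It was 0.951, 0.959 and 0.936 for DVR1 in the same groups, F2 again the highest. In Fe2O3 libraries it was 0.887 for HMX and 0.871 for UNIV, with F2 the lowest.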

How the results depend on the processing

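Averaged over the sets, the calls of CHRD and UNIV with ZnSO4 and in zinc against iron held under RLE factors, DESeq2, limma-trend, both other filters, summed F1 libraries, omission of any set or of any 1 library. Without the set term, values were 0.33 for UNIV with ZnO, -2.86 and 0.377 for CHRD and UNIV with ZnSO4, and -1.77 and 0.387 in zinc against iron, none called. UNIV with ZnO lost its call without set F1 (0.27), and without 1 library it ran from 0.25 (F1 ZnO left out) to 0.40 (F2 ZnO left out). For ZnO against ZnSO4, CHRD was called without set F1 (1.58) and without the F2 or the F3 ZnSO4 library (2.92 and 2.74). It stayed uncalled in 28 of 31 fits and ran from 1.52 to 2.92 without 1 library. Within sets, UNIV with ZnSO4 lost its call without 1 library in 2 fits for F1 (0.22 and 0.23) and in 4 for F2 (0.40 to 0.41). Within single sets, permutation gave differences of -0.54 and -1.72 for CHRD in F2 and F3 and 0.353 and 0.444 for UNIV. For their ratio they were -0.89 and -2.17. The 10 permutations of F2 or F3 cannot go below p = 0.1. In F2, CHRD and the ratio stood above that, at an exact permutation p of 0.7 and 0.4, and the rest reached it.

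No pairing of the F1 libraries by replicate number was seen, since differences between replicates 1 and 2 correlated at -0.072 to 0.049 between treatments. Such correlations over all features, many of them low, cannot exclude a shared origin. Numbers in the sample names place F1 replicates 1 and 2 in separate stretches of the numbering. The number of F1 ZnO lies among those of replicate 2. What the numbering means is not stated. With the replicate block, which leaves out the F1 ZnO library, UNIV with ZnO was 0.25 and not called (adjusted p = 0.251), and no other called value against control or in zinc against iron changed its call.

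Counts of called features moved by over 1.5 times in some fits. Without the set term they were 30 (ZnO, main count 1311), 116 (ZnSO4, 3405), 334 (zinc against iron, 4690) and 0 (ZnO against ZnSO4, 49, and both comparisons among iron forms and control, 17 and 46). Without set F1 they were 1981 for ZnSO4, 2692 for zinc against iron and 300 for ZnO against ZnSO4. With F1 libraries summed they were 837, 1707 and 1 for ZnO, ZnSO4 and their difference. For ZnO the count was 574 with the replicate block, 651 without F1 ZnO, 873 without the F3 control and 2191 without both F1 ZnSO4 libraries. For ZnO against ZnSO4 it ran from 4 to 426 without 1 library and was 17 by limma-trend and 191 by DESeq2. Single libraries in F2 and F3 limit every statement on those sets. Values that were not called were given no direction when fits were compared.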

Other observations

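Sums of other gene groups were set beside CHRD, which was lowest in the F1 ZnSO4 libraries. The apical plate features NK2.1 and ANKAT-1 summed to 107% and 111% of the F1 control mean there, while they stood at 12.2% to 30.2% of the set's control in the other 5 zinc libraries. The ectoderm homeobox features HMB1, DLX and HMX summed to 19.1% and 19.9% in F1 ZnSO4, 16.3% in F1 ZnO, 53.3% in F2 ZnO, 48.0% in F2 ZnSO4, 63.5% in F3 ZnO and 22.9% in F3 ZnSO4. The 7 skeletogenic features summed to 94.9% and 97.3% in F1 ZnSO4 and to 103% to 119% in the other zinc libraries, against 85.8% to 103% in control and iron libraries. These sums were not tested.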
